A study of Mus musculus with 16 samples.

Results

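The genes described here encode the serine proteases that loosen the cornified layer of the epidermis and the inhibitors that hold proteases in check. They are 74 of the 27179 genes in the count table: 27 kallikreins (Klk), 28 clade B serpins (Serpinb), 12 Kazal-type inhibitors (Spink), the membrane-anchored proteases St14 (matriptase) and Prss8 (prostasin) with their Kunitz-type inhibitors Spint1 and Spint2, the cystatins Cst3 and Cst6, and the whey acidic protein family gene Wfdc21. The rule picks members by gene symbol and uses no measured value, but these gene families were chosen with earlier results of the same data known. A total of 57 members had at least 1 count, and 38 passed the low-count filter and were tested: 10 kallikreins, 18 serpins B, 3 Kazal inhibitors, the 4 membrane proteases and Kunitz inhibitors, and the 3 cystatins and Wfdc21.

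Epidermal cells came from aged C57BL/6J mice, in 2 groups of 4: mice injected with blocking antibodies against IL-17A and IL-17F, and mice injected with control IgG. Injections began at 73 weeks of age and were given 3 times a week for 12 weeks, so all 8 mice were of the same strain and age, and no untreated or young mice are part of these samples. RNA was taken from whole epidermal cell suspensions and sequenced as bulk libraries. Totals were 42816157 to 52255040 counts in anti-IL-17A/F mice and 50533151 to 53721153 counts in control IgG mice. The comparison asks whether blocking the IL-17 cytokines in aged skin went with other transcript levels of these proteases and inhibitors.

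In the granular layer of the epidermis, kallikreins are secreted with lamellar bodies and, once active, cleave the corneodesmosomes that hold corneocytes together. Klk5 activates itself and then Klk7 and Klk14, and the Kazal inhibitor LEKTI, encoded by Spink5, blocks them at the more neutral pH of the deeper layers. Matriptase and prostasin form an upstream cascade at the keratinocyte surface, restrained by the Kunitz inhibitors HAI-1 (Spint1) and HAI-2 (Spint2). Clade B serpins act mostly inside cells, some on serine proteases and some on cysteine proteases, while cystatins inhibit cysteine cathepsins.

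Both large families lie in gene clusters. All 27 kallikreins are on chromosome 7 (GRCm38, 43680880 to 44229622), and the 10 that were measured fill one end of the cluster, from Klk14 to Klk5 (43680880 to 43851181). The 15 genes Klk1 and Klk1b at the other end, which are known as glandular kallikreins, together had 6 counts in all 8 mice. The serpins B form a cluster of 12 genes on chromosome 1 (106861175 to 107608978) and one of 16 genes on chromosome 13 (32842092 to 34002794), with 10 and 8 genes measured.

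The promoter windows of 5 members are printed as examples. All but Klk7 were picked with a motif match and none is a serpin B of chromosome 13, so they do not represent their clusters. Windows ran from 250 bases before to 50 bases after the RefSeq start (GRCm38.p6), and 56 of the 74 members had one. A set of 4 motifs was searched on both strands: the AP-1 site TGANTCA, the κB consensus of NF-κB, the grainyhead-like site AACCNGTT, and TATAAA. Of these, only TGANTCA reads the same on both strands. Capitals mark AP-1 matches in the serpins B and κB matches in Klk10, where 2 matches overlap by all but 1 base. No match of one motif overlapped a match of another. The Klk7 window (chr7:43811044-43811343, plus strand) holds none of the 4 motifs and is given for the kallikrein of largest difference. The others are Klk10 (chr7:43780804-43781103, plus strand), Serpinb5 (chr1:106860925-106861224, plus strand), Serpinb11 (chr1:107362064-107362363, plus strand) and Serpinb10 (chr1:107528753-107529052, plus strand).
Klk7: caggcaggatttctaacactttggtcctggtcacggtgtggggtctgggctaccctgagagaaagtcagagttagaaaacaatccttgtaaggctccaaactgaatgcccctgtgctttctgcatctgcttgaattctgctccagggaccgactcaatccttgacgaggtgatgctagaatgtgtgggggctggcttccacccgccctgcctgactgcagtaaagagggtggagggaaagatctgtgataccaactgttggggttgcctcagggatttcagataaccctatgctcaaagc
Klk10: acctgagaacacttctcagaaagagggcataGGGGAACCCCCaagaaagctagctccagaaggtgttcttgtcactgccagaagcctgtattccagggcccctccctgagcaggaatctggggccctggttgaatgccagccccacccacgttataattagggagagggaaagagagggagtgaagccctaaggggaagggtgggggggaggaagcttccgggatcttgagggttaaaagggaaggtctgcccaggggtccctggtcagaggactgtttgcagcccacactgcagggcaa
Serpinb5: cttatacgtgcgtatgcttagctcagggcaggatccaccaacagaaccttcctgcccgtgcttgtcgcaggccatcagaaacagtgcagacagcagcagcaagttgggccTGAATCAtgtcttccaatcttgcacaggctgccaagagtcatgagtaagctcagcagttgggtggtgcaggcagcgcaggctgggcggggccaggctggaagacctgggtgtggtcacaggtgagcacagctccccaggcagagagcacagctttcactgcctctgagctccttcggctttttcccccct
Serpinb11: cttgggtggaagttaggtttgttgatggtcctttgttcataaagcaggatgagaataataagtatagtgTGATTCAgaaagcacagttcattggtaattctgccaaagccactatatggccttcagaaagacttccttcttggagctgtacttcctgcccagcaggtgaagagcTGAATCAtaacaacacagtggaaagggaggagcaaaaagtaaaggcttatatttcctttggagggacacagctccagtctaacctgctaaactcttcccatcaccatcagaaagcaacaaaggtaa
Serpinb10: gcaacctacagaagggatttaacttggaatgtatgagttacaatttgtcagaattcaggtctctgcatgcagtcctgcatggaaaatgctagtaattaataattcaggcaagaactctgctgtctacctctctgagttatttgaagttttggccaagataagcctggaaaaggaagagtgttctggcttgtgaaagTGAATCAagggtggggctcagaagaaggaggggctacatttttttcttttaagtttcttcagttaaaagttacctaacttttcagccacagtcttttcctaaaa

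AP-1 letters were found in 8 of the 11 windows of measured serpins B on chromosome 1 (72.7%), in 0 of the 10 windows of measured serpins B on chromosome 13, in 0 of the 28 kallikrein windows, and in 7.81% of all 32851 windows. The matching chromosome 1 genes were Serpinb2, Serpinb5, Serpinb7, Serpinb8, Serpinb10, Serpinb11 and Serpinb12. Serpinb11 held the AP-1 letters at 2 places, starting 181 and 76 bases before the start site. The κB consensus was found in 3 of the 28 kallikrein windows (10.7%: Klk9, Klk10 and Klk11), which are 3 of the 12 windows of measured kallikreins, in 0 of 32 serpin B windows, and in 8.46% of all windows. TATAAA was found in 7 of the 11 chromosome 1 windows (63.6%), in 1 of the 28 kallikrein windows (3.57%) and in 13.6% of all windows, and AACCNGTT in no measured member against 2.09% of all windows. Neighbouring serpin genes arose by duplication, so their windows are related sequences, and a match of letters shows no binding.

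No member was called between the groups. Of 38 members tested, 0 passed an adjusted p below 0.1 with edgeR, and of all 16335 genes 0 passed (0%). The adjusted p was 0.984 or higher for every member with edgeR, and the lowest that any alternative gave a named member was 0.65 (Serpinb3c without control IgG mouse 1). DESeq2 called 0 members against 0.0551% of all genes, and limma-voom called 0. At an unadjusted edgeR p below 0.05 there was 1 member lower in anti-IL-17A/F mice (Klk6), against 1.57% of all genes, and there were 3 higher (Serpinb3c, Serpinb11 and Serpinb13), against 2.45% of all genes. Of these, Serpinb3c passed the low-count filter through its anti-IL-17A/F mice. At an unadjusted p below 0.05 DESeq2 gave 2 members, against 4.35% of all genes, and limma-voom gave 9, against 6.72% of all genes. For 0 of the 38 members were the 4 mice of one group all above the 4 of the other, against 2.42% of all genes. Since the libraries are bulk, fewer cells of a type and less RNA per cell cannot be told apart in any value below.

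**Figure D1:**
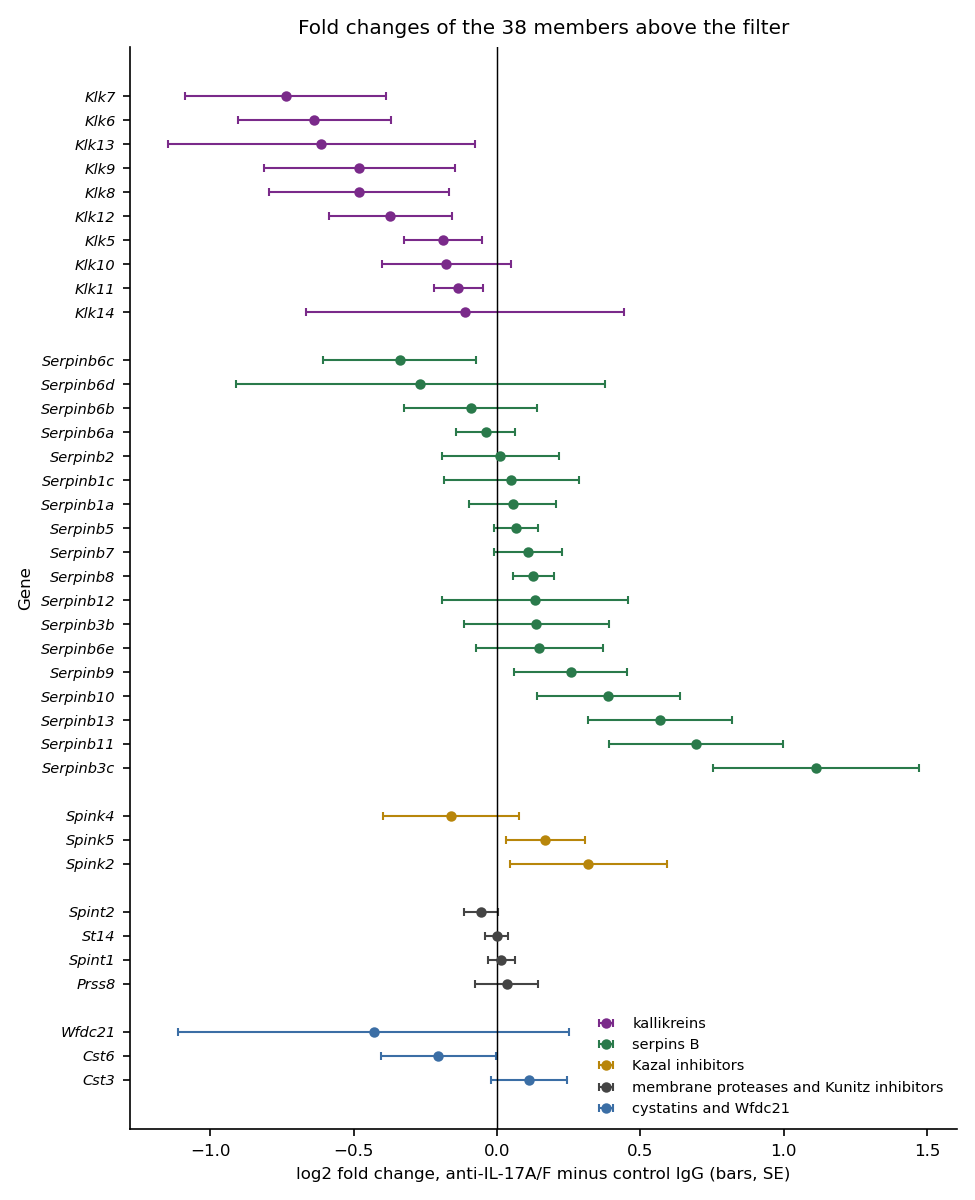
Log2 fold change (x axis, anti-IL-17A/F minus control IgG) of each of the 38 members above the filter (y axis), grouped by role. Points are edgeR estimates and bars are 1 SE. The 10 kallikreins lie left of 0, between -0.74 and -0.11, and the serpins B spread between -0.34 and 1.11.

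The kallikreins had negative log2 fold changes in 10 of 10 measured genes, with a median of -0.43, while 49.9% of all genes tested were negative and their median was near 0 (9.31e-05). Their summed level was 207, 232, 303 and 395 CPM (counts relative to the library total, scaled by its TMM factor) in anti-IL-17A/F mice 1 to 4, against 505, 343, 341 and 324 CPM across control IgG mice 1 to 4. Every control IgG mouse lay above anti-IL-17A/F mice 1, 2 and 3, and anti-IL-17A/F mouse 4 lay above 3 of them. Control IgG mouse 1 was the highest of all 8 mice for 6 of the 10 genes, and anti-IL-17A/F mouse 1 the lowest for 6. The median ran from -0.49 to -0.24 over the mice left out in turn, and the value nearest 0 was that without control IgG mouse 1. Among the 10, Klk14 alone changed sign under an alternative. These genes are neighbours measured in the same mice, so their common sign is not 10 separate observations.

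**Figure D2:**
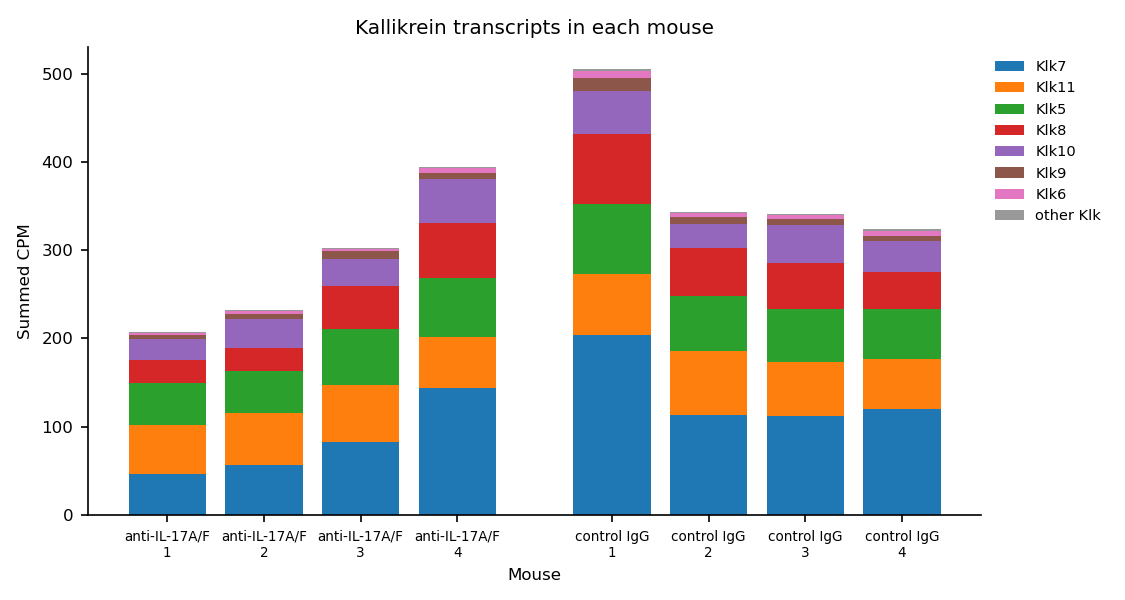
Summed CPM (y axis) of the kallikreins in each of the 8 mice (x axis), stacked by gene. The stack reaches 207 to 395 CPM in anti-IL-17A/F mice and 324 to 505 CPM in control IgG mice. Klk7 is the largest layer in all 4 control IgG mice and in anti-IL-17A/F mice 3 and 4, and Klk11 in anti-IL-17A/F mice 1 and 2.

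Klk7, the chymotrypsin-like kallikrein that cleaves corneodesmosin and desmocollin 1, had 46.5, 56.3, 82.6 and 144 CPM across anti-IL-17A/F mice 1 to 4, against 204, 113, 112 and 120 CPM across control IgG mice 1 to 4. Anti-IL-17A/F mice 1 to 3 were below all controls, while mouse 4 was above 3 of them and control IgG mouse 1 stood apart at the top. Means were 82.3 ± 43.7 CPM with anti-IL-17A/F and 137 ± 45.0 CPM with control IgG (SD, n = 4 mice each), which is 0.60-fold (log2 fold change -0.74, SE 0.35). With anti-IL-17A/F mouse 4 left out the estimate was -1.15, and with control IgG mouse 1 left out it was -0.47. Klk7 took 22.4%, 24.3%, 27.3% and 36.4% of the kallikrein counts in anti-IL-17A/F mice 1 to 4, against 40.5%, 32.9%, 32.7% and 36.9% in control IgG mice 1 to 4. Klk11, by contrast, took 26.5%, 25.4%, 21.5% and 14.6% in anti-IL-17A/F mice and 13.7%, 21.3%, 18.0% and 17.5% in control IgG mice, so the makeup of the family differed among mice as well as its total.

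Klk5, the trypsin-like kallikrein that starts the cascade, had 48.5, 48.2, 62.5 and 67.2 CPM across anti-IL-17A/F mice 1 to 4, against 78.6, 62.2, 60.3 and 56.8 CPM across control IgG mice 1 to 4. The lowest mice were anti-IL-17A/F 1 and 2, and the other 6 overlapped (log2 fold change -0.19, SE 0.14). Klk14, a further trypsin-like kallikrein of the cornified layer, was near its detection limit, with 0.17, 0.256, 0.255 and 0.329 CPM across anti-IL-17A/F mice 1 to 4, against 0.178, 0.0771, 0.21 and 0.626 CPM across control IgG mice 1 to 4. Control IgG mouse 4 held the highest Klk14 value and control IgG mouse 2 the lowest, so the groups overlapped completely, and the estimate (log2 fold change -0.11, SE 0.55) turned to 0.05 with anti-IL-17A/F mouse 1 left out, and to 0.69 with control IgG mouse 4 left out.

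Klk6, a trypsin-like kallikrein found in skin and in the nervous system, had 2.66, 3.58, 3.2 and 5.65 CPM across anti-IL-17A/F mice 1 to 4, against 8, 4.32, 4.79 and 6.35 CPM across control IgG mice 1 to 4. All anti-IL-17A/F mice but mouse 4 lay below every control, and mouse 4 lay between control IgG mice 3 and 4. The means of 3.77 ± 1.31 CPM with anti-IL-17A/F and 5.87 ± 1.67 CPM with control IgG (SD, n = 4 mice each) gave the smallest p among the kallikreins (log2 fold change -0.64, SE 0.27). Leaving out single mice moved the estimate between -0.90 and -0.45. Klk8, a trypsin-like kallikrein of upper epidermis that is also studied as neuropsin, had 25.7, 25.4, 48.9 and 62.6 CPM across anti-IL-17A/F mice 1 to 4, against 79.6, 53.8, 51.9 and 41.7 CPM across control IgG mice 1 to 4. The lowest values were those of anti-IL-17A/F mice 1 and 2 and the highest that of control IgG mouse 1 (log2 fold change -0.48, SE 0.31). The estimate for Klk8 was -0.77 with anti-IL-17A/F mouse 4 left out, and -0.27 with control IgG mouse 1 left out.

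In GENCODE M21 part of the Klk8 and Klk14 exons (28.9% and 22.6%) lies opposite the gene 2310002F09Rik, which had 2.30, 2.72, 2.92 and 2.65 CPM across anti-IL-17A/F mice 1 to 4 and 3.64, 2.79, 3.36 and 3.07 CPM across control IgG mice 1 to 4. Its level was far below that of Klk8 and above that of Klk14. Whether the counting used strand is not stated, so reads of Klk14 and of this antisense gene may be mixed.

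Klk11, a trypsin-like kallikrein, was the steadiest of the family, with 54.9, 59, 65.2 and 57.7 CPM across anti-IL-17A/F mice 1 to 4, against 69.1, 73, 61.3 and 56.6 CPM across control IgG mice 1 to 4. Its highest and lowest mice differed by 1.33 times, and the groups overlapped (log2 fold change -0.13, SE 0.09). Klk12, a trypsin-like kallikrein of low level here, had 0.434, 0.628, 0.549 and 0.406 CPM across anti-IL-17A/F mice 1 to 4, against 0.614, 0.559, 0.802 and 0.626 CPM across control IgG mice 1 to 4. All anti-IL-17A/F mice but mouse 2 were below every control, and mouse 2 was above 3 of them (log2 fold change -0.37, SE 0.21).

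Klk9, Klk10 and Klk13 were singled out after their values were seen. Klk9 had 4.05, 5.04, 8.14 and 6.87 CPM across anti-IL-17A/F mice 1 to 4, against 14.7, 7.15, 6.27 and 5.59 CPM across control IgG mice 1 to 4. A single mouse set most of its difference (log2 fold change -0.48, SE 0.33), since the estimate without control IgG mouse 1 was -0.07. Klk10 was highest in anti-IL-17A/F mouse 4 at 48.9 CPM and lowest in anti-IL-17A/F mouse 1 at 24.2 CPM (log2 fold change -0.18, SE 0.22). Klk13 had 0.264, 0.349, 0.294 and 1.16 CPM across anti-IL-17A/F mice 1 to 4, against 1.37, 0.713, 0.42 and 0.684 CPM across control IgG mice 1 to 4. Its estimate (log2 fold change -0.61, SE 0.54) moved to -1.39 with anti-IL-17A/F mouse 4 left out, and to -0.21 with control IgG mouse 1 left out.

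**Figure D3:**
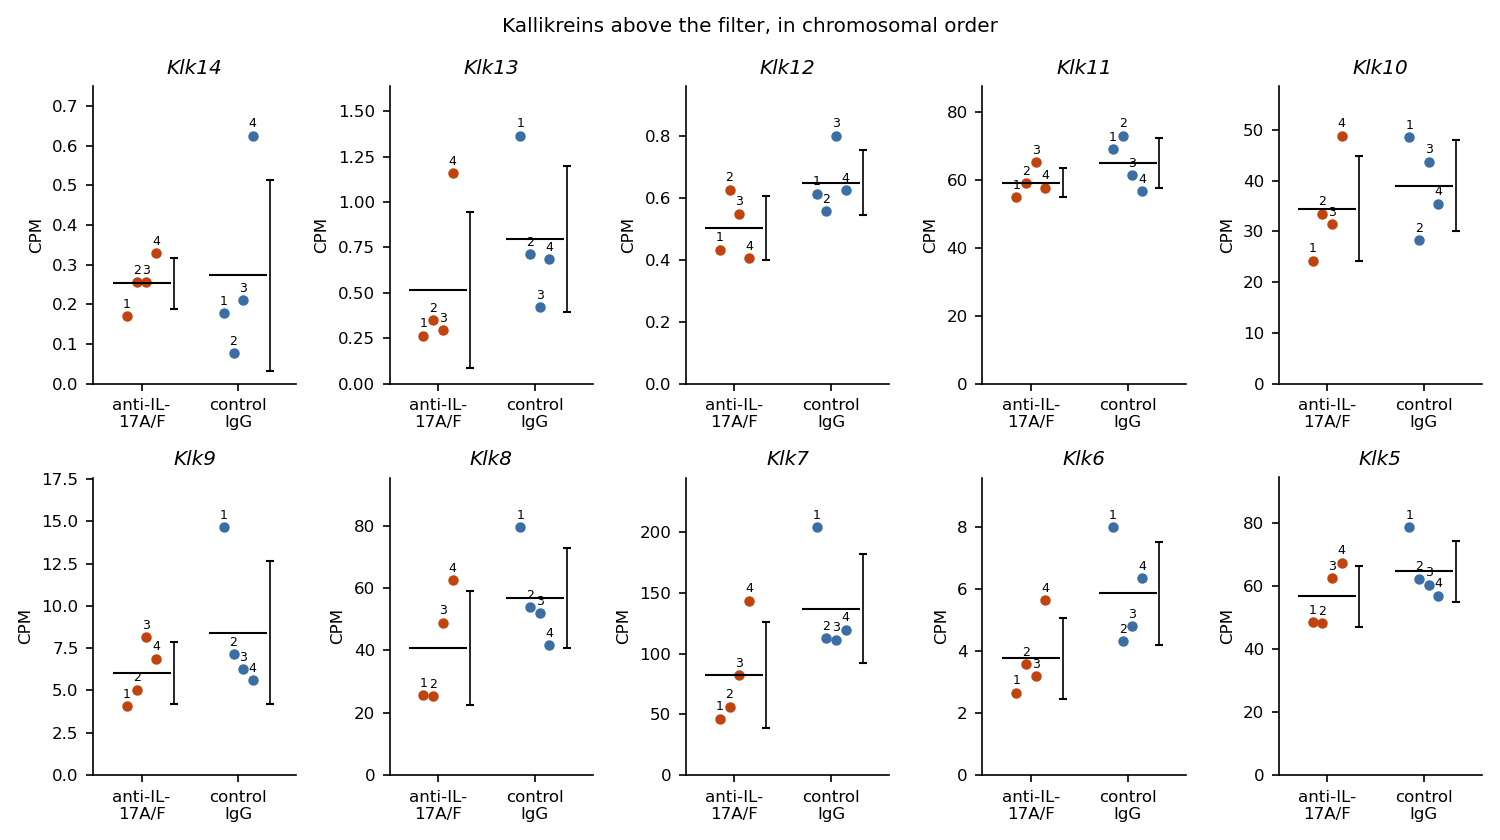
CPM (y axis, each panel from 0) of the 10 kallikreins above the filter in anti-IL-17A/F and control IgG mice (x axis). Points are mice labelled by number, horizontal lines are means and vertical bars are SD (n = 4). Control IgG mouse 1 tops the panels of Klk5, Klk6, Klk7, Klk8, Klk9 and Klk13, and anti-IL-17A/F mice 1 and 2 lie low in most panels.

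Markers of other epidermal states also varied among these mice. The summed level of the 7 granular and cornified layer markers was 304, 316, 321 and 397 CPM across anti-IL-17A/F mice 1 to 4 and 360, 288, 368 and 415 CPM across control IgG mice 1 to 4. Of these 7 genes 5 were lower with anti-IL-17A/F (median log2 fold change -0.12), Flg and Casp14 at an unadjusted p below 0.05, while Cdsn, the largest part of the sum in CPM, was higher. The 11 measured hair shaft and inner root sheath markers summed to 58.1, 83.3, 183 and 308 CPM across anti-IL-17A/F mice 1 to 4 and to 173, 101, 180 and 72.1 CPM across control IgG mice 1 to 4. All 11 had positive log2 fold changes (median 0.24), of which only Hoxc13 and Msx2 had an unadjusted p below 0.05. Both kallikreins and root sheath markers were low in anti-IL-17A/F mice 1 and 2, whereas control IgG mouse 4 was low for root sheath markers alone. The 6 sebocyte markers summed to 5476 to 8276 CPM in anti-IL-17A/F mice and to 6567 to 11982 CPM in control IgG mice, with control IgG mice 1 and 2 highest, and 5 of the 6 were lower with anti-IL-17A/F (median log2 fold change -0.28). No gene of these 3 lists was called by edgeR. The part of these markers in the kallikrein values was not tested. Basal keratinocyte markers summed to 20928 to 23639 CPM in anti-IL-17A/F mice and 19895 to 26168 CPM in control IgG mice. Suprabasal markers summed to 21641 to 24268 CPM in anti-IL-17A/F mice and 19973 to 25185 CPM in control IgG mice. Of 5 gland markers 4 were in the count table, and of these Bpifa2, Smgc and Prol1 had no count in any mouse. The remaining one, Aqp5, was measured, with means of 2.94 CPM in anti-IL-17A/F mice and 2.19 CPM in control IgG mice. Its groups overlapped (log2 fold change 0.42, SE 0.23).

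The serpins B had positive log2 fold changes in 14 of 18 measured genes, with a median of 0.12. On chromosome 1 all 10 measured genes were positive (median 0.13), Serpinb2 by only 0.01 and with the opposite sign in batch 1 runs alone. Of these, Serpinb3c passed the low-count filter through its anti-IL-17A/F mice. Serpinb3a of the same cluster, below the filter, went the other way, with 22 counts in anti-IL-17A/F mice and 40 in control IgG mice. On chromosome 13, 4 of 8 measured genes were positive (median 0.005). The difference between the clusters was not tested, and these too are neighbouring genes measured in the same mice. Serpin levels per kilobase of exon ranged from 337 CPM per kb for Serpinb5 to 0.18 CPM per kb for Serpinb3c, averaged over the 8 mice. Control IgG mouse 1, the highest for most kallikreins, was the lowest of 8 mice for 7 of the 18 serpins and the highest for 4.

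Serpinb11, which in the mouse inhibits trypsin-like proteases, had 99.3, 96, 65.5 and 77.5 CPM across anti-IL-17A/F mice 1 to 4, against 57.5, 22.4, 58.2 and 71.1 CPM across control IgG mice 1 to 4. Of the anti-IL-17A/F mice, 3 were above every control, mouse 3 was below control IgG mouse 4, and control IgG mouse 2 lay far below the rest. Means of 84.6 ± 15.9 CPM with anti-IL-17A/F and 52.3 ± 20.9 CPM with control IgG (SD, n = 4 mice each) correspond to 1.62-fold (log2 fold change 0.69, SE 0.30). Without control IgG mouse 2 the estimate was 0.44, and without control IgG mouse 4 it was 0.88.

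Serpinb3c, one of the mouse relatives of human squamous cell carcinoma antigen, a cysteine protease inhibitor, had 0.434, 0.442, 0.53 and 0.252 CPM across anti-IL-17A/F mice 1 to 4, against 0.297, 0.173, 0.0955 and 0.195 CPM across control IgG mice 1 to 4. This rests on 82 counts with anti-IL-17A/F and 39 with control IgG, and anti-IL-17A/F mouse 4 overlapped with control IgG mouse 1. The estimate was the largest of all members and had the smallest p (log2 fold change 1.11, SE 0.36), with a range of 0.89 to 1.41 over the mice left out. However, Serpinb3c passed the low-count filter through its anti-IL-17A/F mice, with 13 to 27 counts each, against 5 to 15 in control IgG mice. It was thus tested through the group where it was higher, and its place among the members is description only. Reads that map equally well to several near-identical copies were not counted, so the level of Serpinb3c is uncertain. In GENCODE M21 Serpinb3b transcripts cover 2.11% of its exonic sequence, and a read overlapping several genes counts for each. The part of such reads in its counts was not tested. Serpinb3b was at 12.4, 13.7, 13.1 and 8.63 CPM across anti-IL-17A/F mice 1 to 4 and at 16.4, 11, 6.84 and 9.25 CPM across control IgG mice 1 to 4.

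Serpinb13, an inhibitor of cathepsins L and K known from human headpin, had 0.566, 0.86, 0.883 and 0.503 CPM across anti-IL-17A/F mice 1 to 4, against 0.555, 0.366, 0.478 and 0.489 CPM across control IgG mice 1 to 4. Of the anti-IL-17A/F mice, 3 were above every control, and mouse 4 lay between control IgG mice 4 and 1 (log2 fold change 0.57, SE 0.25). Serpinb8, an inhibitor of furin-like proteases, had 159, 146, 136 and 129 CPM across anti-IL-17A/F mice 1 to 4, against 123, 125, 136 and 137 CPM across control IgG mice 1 to 4. Anti-IL-17A/F mice 1 and 2 were above every control, and 2 controls were below every anti-IL-17A/F mouse, within a narrow range of 1.29 times from lowest to highest (log2 fold change 0.13, SE 0.07).

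Serpinb5, known as maspin, does not inhibit proteases in the usual way of serpins and was the most abundant member in CPM, with 940, 955, 984 and 849 CPM across anti-IL-17A/F mice 1 to 4, against 866, 972, 926 and 797 CPM across control IgG mice 1 to 4. The groups overlapped over nearly their whole range (log2 fold change 0.07, SE 0.08). Serpinb2, plasminogen activator inhibitor 2, had 356, 300, 355 and 243 CPM across anti-IL-17A/F mice 1 to 4, against 206, 315, 423 and 300 CPM across control IgG mice 1 to 4. Both the highest and the lowest mouse were controls, and the estimate was close to 0 (log2 fold change 0.01, SE 0.20). Serpinb12, a trypsin inhibitor, had 19.7, 12.8, 20.4 and 16.9 CPM across anti-IL-17A/F mice 1 to 4, against 29.1, 12.1, 9.67 and 13.1 CPM across control IgG mice 1 to 4. Control IgG mouse 1 was again apart at the top, and without it the estimate (log2 fold change 0.13, SE 0.32) became 0.60, while it was -0.05 without control IgG mouse 3.

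Serpinb10 and Serpinb6d were singled out after their values were seen. Serpinb10 had 69, 61.7, 60 and 36.5 CPM across anti-IL-17A/F mice 1 to 4, against 29.6, 41.6, 63.3 and 39 CPM across control IgG mice 1 to 4. Control IgG mice 2, 3 and 4 lay within the anti-IL-17A/F values and control IgG mouse 1 below them all (log2 fold change 0.39, SE 0.25). In GENCODE M21 Serpinb2 transcripts cover 19.7% of the exonic sequence of Serpinb10. Whether the annotation used for counting has this overlap was not tested. Serpinb6d varied most among the serpins, with 59.6, 47.4, 198 and 169 CPM across anti-IL-17A/F mice 1 to 4, against 332, 93.4, 97.4 and 46.8 CPM across control IgG mice 1 to 4. Its spread of 7.10 times ran across both groups, and the estimate (log2 fold change -0.27, SE 0.64) was 0.58 without control IgG mouse 1. The other 9 measured serpins B, Serpinb1a, Serpinb1c, Serpinb3b, Serpinb6a, Serpinb6b, Serpinb6c, Serpinb6e, Serpinb7 and Serpinb9, had log2 fold changes of -0.34 to 0.26. Of the Serpinb6a exonic sequence, 26.8% lies opposite 1110046J04Rik and Ripk1 in GENCODE M21, so its reads may be mixed with theirs.

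**Figure D4:**
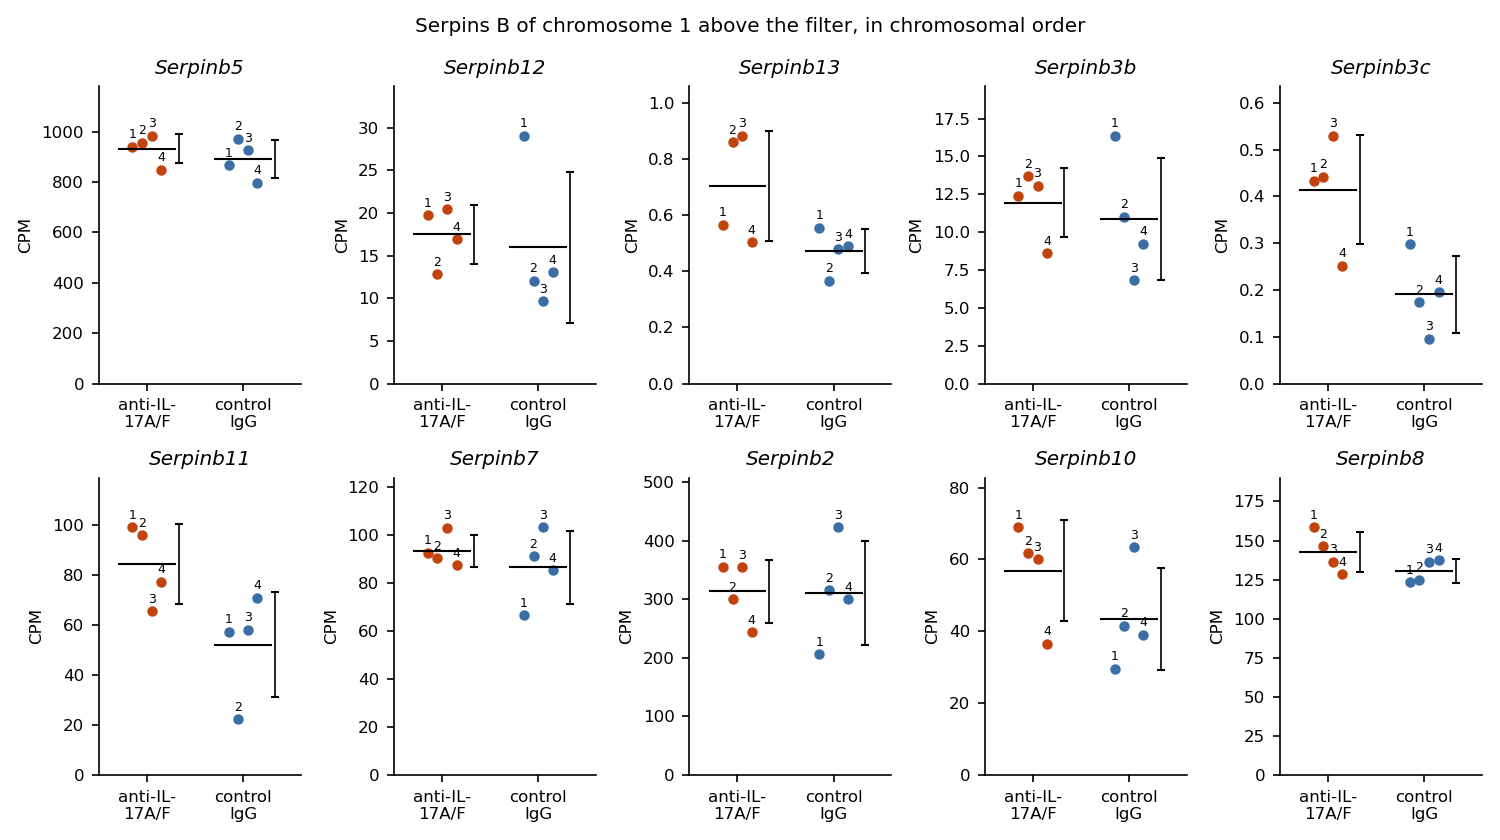
CPM (y axis, each panel from 0) of the 10 serpins B of chromosome 1 above the filter in anti-IL-17A/F and control IgG mice (x axis). Points are mice labelled by number, horizontal lines are means and vertical bars are SD (n = 4). Serpinb11 shows 77.5 to 99.3 CPM in 3 anti-IL-17A/F mice, while Serpinb5 stays between 797 and 984 CPM in all 8 mice.

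Among the Kazal inhibitors, Spink5 carried nearly all of the expression, with 618, 621, 488 and 523 CPM across anti-IL-17A/F mice 1 to 4, against 527, 386, 481 and 608 CPM across control IgG mice 1 to 4. Anti-IL-17A/F mice 1 and 2 were the highest of all and 2 controls were below every anti-IL-17A/F mouse, but control IgG mouse 4 reached 608 CPM and the groups overlapped (log2 fold change 0.17, SE 0.14). Per kilobase of exon Spink5 averaged 111 ± 17.1 CPM per kb, against 57.9 ± 26.6 for Klk7 and 48.9 ± 8.0 for Klk5 (SD over the 8 mice). Spink2, known as an inhibitor of the male reproductive tract, had 1.04, 0.697, 0.687 and 0.735 CPM across anti-IL-17A/F mice 1 to 4, against 0.971, 0.52, 0.458 and 0.586 CPM across control IgG mice 1 to 4. Its highest mice were anti-IL-17A/F 1 and control IgG 1 (log2 fold change 0.32, SE 0.27). Spink4 had 0.735, 0.511, 0.863 and 0.503 CPM across anti-IL-17A/F mice 1 to 4, against 0.574, 0.694, 0.879 and 0.782 CPM across control IgG mice 1 to 4. The groups overlapped (log2 fold change -0.16, SE 0.24).

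The genes of the surface cascade varied little among mice. St14, matriptase, had 110, 107, 110 and 113 CPM across anti-IL-17A/F mice 1 to 4, against 112, 109, 106 and 113 CPM across control IgG mice 1 to 4. All 8 mice lay within 1.07 times of each other, and the estimate had the smallest SE of any member (log2 fold change -0.00099, SE 0.04). Prss8, prostasin, a channel-activating protease of the keratinocyte surface, had 38.7, 42.1, 36.3 and 36.6 CPM across anti-IL-17A/F mice 1 to 4, against 45.6, 38.8, 31.6 and 34.2 CPM across control IgG mice 1 to 4. The lowest 2 and the highest mice were controls (log2 fold change 0.03, SE 0.11). Of its exonic sequence, 6.59% lies opposite Kat8.

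Spint1, HAI-1, the main inhibitor of matriptase, had 98.3, 93.3, 94.1 and 92.2 CPM across anti-IL-17A/F mice 1 to 4, against 101, 91.6, 90.4 and 91.1 CPM across control IgG mice 1 to 4. The groups overlapped within 1.12 times (log2 fold change 0.02, SE 0.05). Spint2, HAI-2, had 235, 234, 232 and 218 CPM across anti-IL-17A/F mice 1 to 4, against 248, 242, 214 and 251 CPM across control IgG mice 1 to 4. Of the controls, 3 were above every anti-IL-17A/F mouse and 1 was below them all (log2 fold change -0.06, SE 0.06). Per kilobase Spint2 averaged 169 ± 9.40 CPM per kb, Spint1 41.3 ± 1.64, St14 33.8 ± 0.83 and Prss8 20.5 ± 2.39 (SD over the 8 mice). The order placed both inhibitors above both proteases.

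Cst3, cystatin C, a secreted inhibitor of cathepsins and the most abundant member per kilobase (537 ± 80.8 CPM per kb over the 8 mice), had 571, 497, 445 and 406 CPM across anti-IL-17A/F mice 1 to 4, against 406, 408, 409 and 554 CPM across control IgG mice 1 to 4. Control IgG mice 1 to 3 lay within 406 to 409 CPM and control IgG mouse 4 was apart from them (log2 fold change 0.11, SE 0.13). Cst6, cystatin M/E, an inhibitor of cathepsin V and legumain whose loss in mice causes a cornification defect, had 376, 495, 368 and 380 CPM across anti-IL-17A/F mice 1 to 4, against 492, 313, 416 and 644 CPM across control IgG mice 1 to 4. Control mice held both the highest and the lowest value (log2 fold change -0.20, SE 0.20). Wfdc21 had 0.811, 0.256, 1.45 and 2.42 CPM across anti-IL-17A/F mice 1 to 4, against 0.891, 0.482, 2.2 and 3.13 CPM across control IgG mice 1 to 4. It varied 12.2 times among mice with overlapping groups, and the estimate (log2 fold change -0.43, SE 0.68) was -0.98 with anti-IL-17A/F mouse 4 left out, and 0.06 with control IgG mouse 4 left out.

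**Figure D5:**
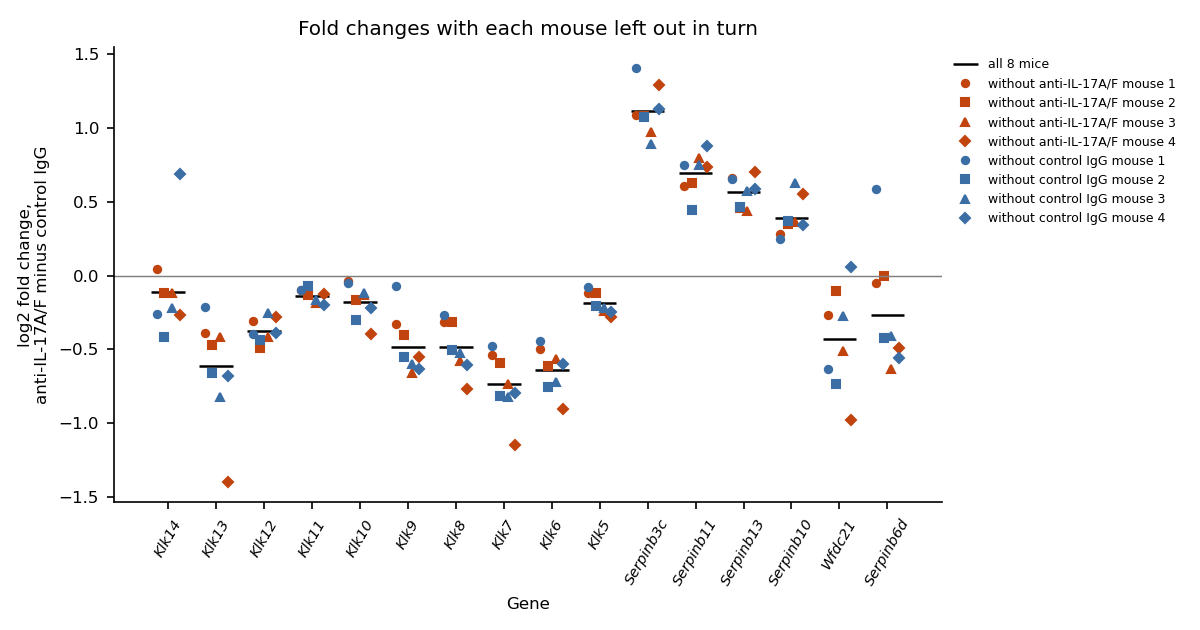
Log2 fold change (y axis, anti-IL-17A/F minus control IgG) of the 10 kallikreins and 6 other members (x axis) with all 8 mice (line) and with each mouse left out in turn (points, by group colour and mouse shape). Klk7 stays between -1.15 and -0.47 and Serpinb3c between 0.89 and 1.41, while Klk14, Wfdc21 and Serpinb6d cross 0.

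The 36 members below the filter were 17 kallikreins, 10 serpins B and 9 Kazal inhibitors, and 17 of them had no count in any mouse. Serpinb3a, a further cysteine protease inhibitor of that group, had 22 counts in anti-IL-17A/F mice and 40 in control IgG mice, a ratio per total count of 0.58 (exact 95% interval 0.33 to 1.001). Spink6, an inhibitor of several kallikreins in human skin, had 23 counts with anti-IL-17A/F and 11 with control IgG, a ratio of 2.21 (1.03 to 5.02). The interval of Serpinb3a contained 1, as did those of Spink1, Spink8, Spink10, Spink12, Serpinb1b and Serpinb9b, which also reached 10 counts. These intervals cover counting error only, not the spread between mice, and no member below the filter was tested.

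Genes around the system were taken as 3 lists. Of the 14 substrates and surface receptors, all measured, 9 were higher and 5 lower (median 0.01). Flg, profilaggrin, had 0.64, 0.79, 1.33 and 3.37 CPM across anti-IL-17A/F mice 1 to 4 and 5.29, 2.06, 4.22 and 4.28 CPM across control IgG mice 1 to 4. Anti-IL-17A/F mice 1 to 3 were below every control, and mouse 4 was above control IgG mouse 2 (log2 fold change -1.36, SE 0.51, edgeR adjusted p = 0.984). Cdsn, corneodesmosin, a substrate of Klk5, Klk7 and Klk14, had a log2 fold change of 0.24 (SE 0.16), and Epcam, cleaved by matriptase, of 0.21 (SE 0.13).

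Of 17 measured other proteases, 14 were lower and 3 higher (median -0.15), and 0 were called by edgeR. Casp14, the caspase that processes filaggrin products, had 72.1, 72.4, 76.4 and 94.4 CPM across anti-IL-17A/F mice 1 to 4 and 137, 110, 95.5 and 95.4 CPM across control IgG mice 1 to 4. Every anti-IL-17A/F mouse was below every control, if narrowly for mouse 4 (log2 fold change -0.47, SE 0.13, edgeR adjusted p = 0.984). Ctsc and Ctsd, the lysosomal cathepsins C and D, had log2 fold changes of -0.11 (SE 0.05) and -0.22 (SE 0.11). Of 15 measured other inhibitors, 8 were higher and 7 lower (median 0.005). Serpinh1, the collagen chaperone HSP47, which inhibits no protease, had 0.32 (SE 0.12), Cstb, cystatin B, had -0.19 (SE 0.12) and Wfdc12 had 0.49 (SE 0.35). Flg, Casp14 and Cdsn also belong to the granular marker list above.

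Neutrophils and mast cells, whose proteases several of these serpins inhibit, had defining markers at or near 0. The 7 neutrophil markers summed to 0.94 to 2.07 CPM in anti-IL-17A/F mice and 0.95 to 1.83 CPM in control IgG mice, with Ly6g at 0. The 6 mast cell markers summed to 6.16 to 12.4 CPM in anti-IL-17A/F mice and 7.59 to 10.6 CPM in control IgG mice, mostly from Kit, which melanocytes also express, with Ms4a2 at 0. Macrophage and monocyte markers summed to 9.68 to 15.9 CPM in anti-IL-17A/F mice and 9.01 to 26.7 CPM in control IgG mice.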

How the data were processed

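RNA of epidermal cells from 8 aged mice was sequenced as stranded poly(A) libraries, each in 2 runs. The authors aligned reads to mm10 with STAR 2.5.2b and deposited raw counts per Entrez gene from featureCounts, in which a read overlapping several genes counts for each and multi-mapping reads are left out, so levels of near-identical Klk1b, Serpinb3, Serpinb6 and Serpinb9 copies are uncertain. Whether that step used strand is not stated. Symbols were found for 25275 of 27179 rows. Symbols and coordinates came from RefSeq genes, and exon lengths and overlaps from GENCODE M21. The 2 runs of a mouse differed by about sampling noise (chi-square per gene 1.00 to 1.06) and were summed.

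Groups (4 mice each) were compared over all 16335 genes passing filterByExpr (minimum count 10, minimum total 15) with the two-sided quasi-likelihood test of edgeR 4.0.16 in R 4.3.3 (TMM), and a gene was called where its p, adjusted by Benjamini-Hochberg, was below 0.1. The study also used an experimental batch as covariate. The labels mark the runs as batch 1 or batch 2, and every mouse is in both, so the summed counts had no batch term. Whether these are the study's experimental batches is not stated. The labels do not say whether mice of the same replicate number were paired, and they were treated as unpaired. Correlations of deviations from the group means were -0.27 to 0.25 for same-numbered mice and -0.31 to 0.30 for others. So few values cannot decide the question. Alternatives were DESeq2 1.42.0, also with a minimum on shrunken folds as in the study, limma-voom (limma 3.58.1), other normalizations, filters and thresholds, single runs, a replicate block and each mouse left out. The test was checked on simulated counts. Members and lists were chosen with earlier results of these data known. Named members were the surface proteases and inhibitors, cystatins, Wfdc21, the cornified-layer kallikreins, Spink5 and 5 serpins where measured, and per family the 4 of smallest p and the 2 of highest mean CPM, with at most 3 genes of smallest p per list.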

Additional observations from a re-analysis of the deposited data

Results flagged for a closer look

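In 58 groups of 4 mice (29 named members, each in both groups) a mouse was marked where its gap to the nearest other mouse exceeded the share of the group's range given by Dixon's critical value at 95%, which chance does in about 1 group of 20. There were 7 such values. In anti-IL-17A/F mice they were Klk13 in mouse 4 (1.16 CPM), Cst6 in mouse 2 (495 CPM), Spink2 in mouse 1 (1.04 CPM) and Spint2 in mouse 4 (218 CPM, low). In control IgG mice they were Klk7 in mouse 1 (204 CPM), Spint1 in mouse 1 (101 CPM) and Cst3 in mouse 4 (554 CPM). Without anti-IL-17A/F mouse 4 both the Klk7 and the Klk13 estimates were further below 0, and without control IgG mouse 1 both were nearer 0.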

How the results depend on the processing

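No member was called under any alternative. DESeq2 called 9 genes of the whole table against 0 with edgeR, and with its shrunken folds held to the study's minimum it called 0 and the kallikrein median was -0.056, against -0.43 as reported, by the construction of the shrinkage. The other family medians moved by less than 1 SD between mice, but with 1 mouse left out the median of the cystatins and Wfdc21 ran from -0.35 to 0.061 (-0.20 with all mice, positive without control IgG mouse 4), that of the Kazal inhibitors from 0.065 to 0.28 (0.17 with all mice, lowest without control IgG mouse 2 and highest without control IgG mouse 4), that of the surface proteases and Kunitz inhibitors from -0.030 to 0.035, and that of the serpins B from 0.073 to 0.15 (0.12 with all mice, lowest without control IgG mouse 4). St14, at -0.00099, turned to 0.010 with upper-quartile normalization, 0.0018 with a filter of 1 CPM in 4 mice and 0.035 in batch 1 runs alone. Serpinb2 turned to -0.00085 in batch 1 runs and Spink4 to 0.19 in batch 2 runs. With the replicate block Klk14 was 0.060, the kallikrein median was -0.39 and 0 genes were called. Ranges with 1 mouse left out that crossed 0 were -0.019 to 0.013 for St14, -0.041 to 0.14 for Prss8, -0.0028 to 0.058 for Spint1, -0.98 to 0.061 for Wfdc21, -0.42 to 0.69 for Klk14, -0.14 to 0.20 for Serpinb2, -0.045 to 0.60 for Serpinb12 and -0.63 to 0.58 for Serpinb6d. Of 540 values of single members under the alternatives, 24 changed sign. Apart from the shrinkage, the cause of these changes was not tested. Depth limits the rare kallikreins, which had 106 (Klk14) to 267 (Klk13) counts over all mice.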
